A study of Mus musculus with 2 samples.

Results

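The non-cycling stromal preadipocytes of inguinal white (iWAT) and interscapular brown (iBAT) adipose tissue were the cultured Pdgfra-positive cells with at most 1 transcript of 8 cell division genes. Members were chosen by these counts alone, in steps. A cell first needed over 200 but under 7500 genes with a count, under 30% mitochondrial transcripts and at least 10000 unique molecular identifiers (UMIs, 1 per captured transcript). Cells with at least 1 UMI of Pdgfra, the stromal PDGF receptor, and none of Epcam, Ptprc, Pecam1 or Sox10 were taken as mesenchymal. Members had at most 1 UMI summed over 8 genes of DNA replication and mitosis, namely Mki67, Top2a, Cdk1, Ccnb1, Birc5, Ube2c, Mcm5 and Pcna. They numbered 2367 of 58598 barcodes. In iWAT they were 1363 of 13655 mesenchymal cells, and in iBAT 1004 of 24305. Mesenchymal cells with 10 or more UMIs of the 8 genes, 7590 in iWAT and 15436 in iBAT, served as the cycling cells.

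Each depot was 1 library. The cells came from stromal vascular fractions of wild-type C57BL/6N mice aged 8 to 12 weeks per the labels, with tissue pooled before plating, and were grown in primary culture to 80% confluency. Each library merged 4 tagged cultures, which per the labels were untreated or spent 48 h with FGF1, with FGF2 or with FGF8, each at 5.5 nM, while the published methods name vehicle, FGF1 and FGF2 only. The files used here give no tag per cell, so members of all treatments were pooled and no treatment was compared. All values are therefore descriptions of 2 libraries, with no replicate and no test.

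Preadipocytes are the fibroblast-like progenitors of fat cells, and in culture they divide until contact, loss of serum or differentiation signals stop them. A cell outside the cycle keeps cyclin-dependent kinases inactive through inhibitor proteins such as p21 (Cdkn1a), p57 (Cdkn1c) and the INK4 family, and the E2F and DREAM complexes then keep S phase and mitotic genes silent. Fibroblast growth factors act on the same switch by raising D-type cyclins through the ERK cascade.

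Members had fewer UMIs than cycling cells. Their median was 16035 UMIs and 4293 genes per cell in iWAT, against 19994 UMIs and 5035 genes in cycling cells, and 21202 UMIs and 5125 genes in iBAT, against 29530.5 and 6005. The rule counts UMIs, and the share of members fell with depth (the plot of share by UMI decile). The cause of this fall was not tested. Deciles were formed from the total UMIs of the mesenchymal cells of each library. In iWAT members made up 20.1% of the cells in the lowest decile (95% exact binomial interval 18.0 to 22.4) and 2.93% in the highest (2.10 to 3.97). In iBAT the corresponding shares were 12.4% (11.1 to 13.8) and 0.329% (0.142 to 0.647). Over all deciles the share was 9.98% in iWAT (9.48 to 10.5) and 4.13% in iBAT (3.88 to 4.39). After random thinning of all cells to 10000 UMIs and a new classing, the shares were 20.3% (19.6 to 21.0) and 18.6% (18.2 to 19.1). Among the cells kept, the gap between the depots was thus much smaller at equal depth. The minimum of 10000 UMIs had left out 5780 of 29962 iWAT barcodes and 0 of 28636 iBAT barcodes, and its effect on the gap was not tested. Mitochondrial transcripts had medians of 5.90% in iWAT members and 5.11% in cycling cells, and of 6.70% and 6.31% in iBAT. With cells limited to under 15% mitochondrial transcripts, the shares of members were 9.83% in iWAT and 4.08% in iBAT.

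**Figure D1:**
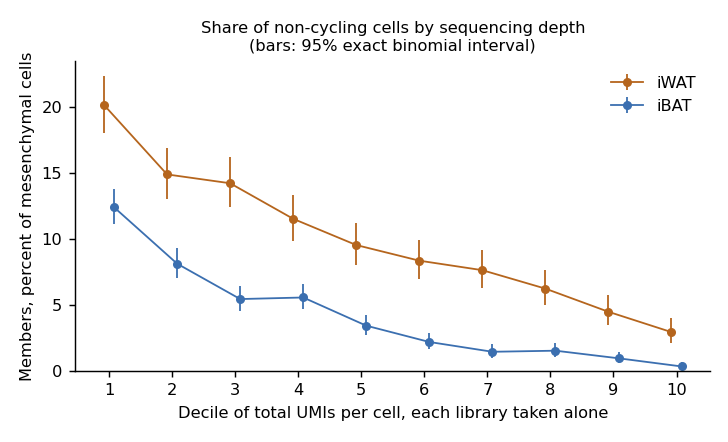
Members as a percent of mesenchymal cells (y axis) in each decile of total UMIs per cell (x axis), with iWAT in brown, iBAT in blue and bars for 95% exact binomial intervals. The share went from 20.1% to 2.93% in iWAT and from 12.4% to 0.329% in iBAT as depth increased.

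Levels below are in CPM, the UMIs of a gene per 1000000 UMIs summed over the cells of a class. Cycling cells were read within the same UMI deciles and weighted to the members' depth. All 10 deciles were used in iWAT and 9 in iBAT, where the deepest decile held 8 members, under the minimum of 20. Intervals in parentheses are 95% intervals for counting error alone. Differences are log2 ratios of members over matched cycling cells, and a gene counted as higher or lower at 1.5-fold or more, with at least 20 CPM in one of the classes. By this measure 2.93% of the genes past the filter were higher and 9.56% lower in iWAT members, and 6.13% higher and 9.19% lower in iBAT members, and counts within gene lists are to be read against these shares.

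The UMIs of the 8 genes formed a graded range with no gap at the cutoff (the histogram of cycling UMIs per cell). In iWAT 447 cells had 0 UMIs of the 8 genes, 916 had 1, 1011 had 2 and 875 had 3. In iBAT the numbers were 265, 739, 1102 and 1343. S phase genes outside the rule summed to 256, 269, 278 and 331 CPM in those 4 classes of iWAT, and to 255, 277, 287 and 291 CPM in iBAT. Cells with 25 or more UMIs of the 8 genes reached 1779 and 2132 CPM. Between cells with 1 and with 2 UMIs, Cdkn1a went from 448 to 405 CPM in iWAT and from 356 to 370 CPM in iBAT. Cemip went from 111 to 82.9 CPM in iWAT and from 320 to 309 CPM in iBAT. Gas1 went from 32.9 to 28.4 CPM in iWAT and from 345 to 283 CPM in iBAT. The levels in this paragraph were not matched on depth.

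**Figure D2:**
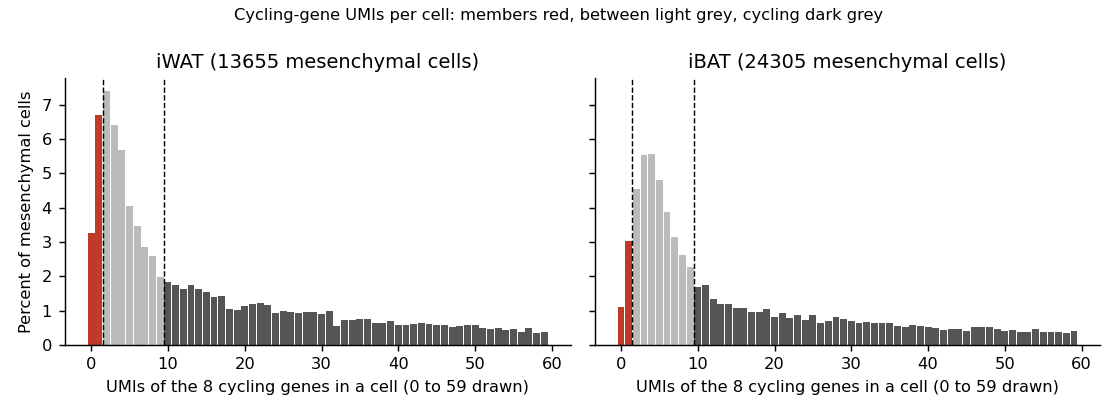
UMIs of the 8 cycling genes per mesenchymal cell (x axis, 0 to 59) against the percent of mesenchymal cells (y axis), with members in red, cells between the classes in light grey and cycling cells in dark grey. No gap separates members from the cells with 2 or 3 UMIs, and 1719 iWAT and 6955 iBAT cells with 60 or more UMIs are not drawn.

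Of the 3 genes that mark the label, Cdkn1a alone was above cycling cells in both libraries. Cdkn1a, which encodes p21, was at 454 CPM (445 to 462) in iWAT members and 289 CPM (285 to 292) in matched cycling cells, a log2 ratio of 0.65 (0.62 to 0.68). In iBAT it was at 367 CPM (359 to 375) and 252 CPM (249 to 254), a log2 ratio of 0.55 (0.51 to 0.58), under 1.5-fold. Members were the higher class in 10 of 10 deciles of iWAT and 9 of 9 of iBAT. With members limited to 0 cycling UMIs the ratios were 0.71 in iWAT and 0.77 in iBAT, both past 1.5-fold. The iWAT ratio was under 1.5-fold with no matching on depth (0.49), against cycling cells with 25 or more cycling UMIs (0.47) and after thinning (0.41), and after thinning the iBAT ratio was 0.18. Across cells with 0 to 1, 2 to 4, 5 to 9, 10 to 24 and 25 or more cycling UMIs, Cdkn1a was at 454, 376, 294, 235 and 328 CPM in iWAT and at 367, 329.8, 265, 203 and 279 CPM in iBAT. The level was thus lowest in cells with 10 to 24 cycling UMIs and higher again in those with the most.

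Gas1, a membrane protein first found as a growth-arrest transcript, went in opposite directions. It was at 32.2 CPM (30 to 34.6) in iWAT members against 49.6 CPM (48.2 to 51.1) in cycling cells, a log2 ratio of -0.62 (-0.73 to -0.51), with members higher in 1 of 10 deciles. In iBAT it was at 343 CPM (335 to 351) against 189 CPM (187 to 192), a log2 ratio of 0.86 (0.82 to 0.89), with members higher in 7 of 9 deciles. The tenth of iBAT members that held most Gas1 had 52.0% of its UMIs. After thinning to 10000 UMIs, 58.5% of iBAT members and 54.4% of iBAT cycling cells had a UMI of Gas1. The iWAT ratio was under 1.5-fold with no matching on depth (-0.40), after thinning to 10000 UMIs (-0.57) and with median-of-ratios scaling (-0.58), and negative in each. The 2 deciles of iBAT that went the other way were the deepest used, where Gas1 was at 108 against 143 CPM and at 88.8 against 124 CPM. Cdkn1c, which encodes p57, was close to absent. iWAT members held 77 UMIs of it, 3.33 CPM (2.63 to 4.16), against 4.34 CPM (3.95 to 4.77) in cycling cells, and iBAT members 5.15 CPM (4.24 to 6.21) against 2.48 CPM (2.23 to 2.74). Of the 113 Cdkn1c UMIs in all iBAT members, 38 came from 1 cell. The markers therefore do not all go with the label, and the cells are described here by the rule, as mesenchymal cells with few or no cycling transcripts.

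**Figure D3:**
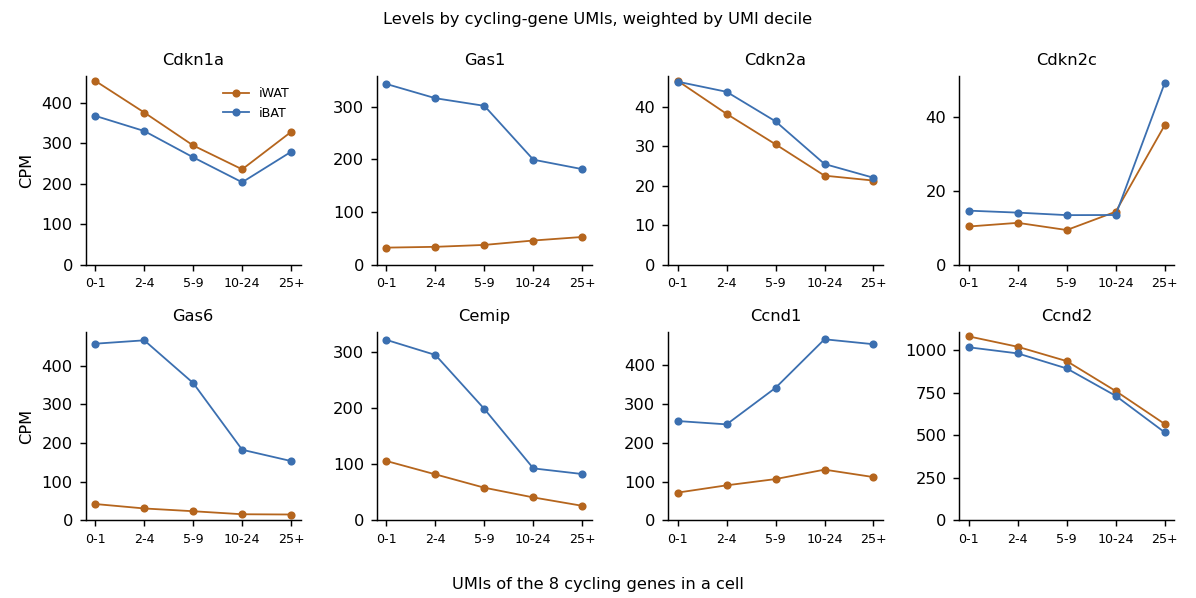
CPM, weighted by UMI decile (y axes, each starting at 0), against the number of cycling-gene UMIs in a cell (x axes) for 8 genes, with iWAT in brown and iBAT in blue. Cdkn1a dips in the 10 to 24 class and Gas1 runs in opposite directions, while Cdkn2a, Cemip and Ccnd2 decrease at every step in both libraries and Cdkn2c is highest in the last class.

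Genes of the stromal lineage were mostly present. Of 10 mesenchymal markers, Pdgfra among them, 8 in iWAT and 9 in iBAT passed the filter of 20 CPM in a class. The 10 summed to 38685 CPM in iWAT members and 20558 CPM in iBAT members, most of it collagen. Pdgfra, which the rule used, was at 149.6 against 160.2 CPM in iWAT and 345 against 303 CPM in iBAT.

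The genes of DNA replication and mitosis that the rule did not use were low in members as well. These genes move with the 8 of the rule in dividing cells, so their values describe the choice of cells. The summed UMIs of 58 such genes had a median of 11 per member in iWAT and 15 in iBAT, against 106 and 167.5 in cycling cells. All 24 S phase genes past the filter were lower in iWAT and all 24 in iBAT, with median log2 ratios of -2.73 and -3.15. Of 29 G2/M genes in each library, 28 were lower, with medians of -4.38 and -4.32. The exception was Pttg1, which encodes securin, at 51.7 against 55.3 CPM in iWAT and 42.6 against 47.5 CPM in iBAT. A cutoff on 8 genes did not set every cell to 0 for the rest. In iWAT 160 members (11.7%) and in iBAT 229 (22.8%) had 20 or more UMIs over the 58 genes, against 99.7% of cycling cells in each library.

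Outside the 8 genes of the rule, those farthest below cycling cells in both libraries were Kif2c, Rad51ap1, Ccna2, Pbk, Hmmr, Dlgap5, Ckap2l, Melk, Kif23 and Plk1. Ccna2, the S and G2 phase cyclin A2 (GRCm39 chr3:36619014-36626299), was at 4.54 CPM (3.72 to 5.50) against 213 CPM (211 to 216) in iWAT and at 6.17 CPM (5.17 to 7.32) against 229.9 CPM (228 to 232) in iBAT, log2 ratios of -5.55 and -5.22. Plk1, a kinase of mitotic entry (GRCm39 chr7:121758646-121769108), was at 2.77 against 82.8 CPM in iWAT and 2.18 against 73.9 CPM in iBAT. Kif2c, a microtubule-depolymerizing kinesin at the centromere, was at 1.47 against 63.1 CPM in iWAT and 1.30 against 70.4 CPM in iBAT, and Hmmr, which organizes the spindle, at 3.81 against 162 CPM in iWAT and 4.83 against 167 CPM in iBAT. Ckap2l, a spindle protein, was at 3.24 against 104 CPM in iWAT and 3.25 against 101 CPM in iBAT. All 10 were lower in every decile used.

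Promoters of such genes commonly hold a CCAAT box and, close to the start, the cell cycle homology region through which the DREAM complex acts. RefSeq windows of 250 bases before to 50 after the start (GRCm38.p6) were searched on both strands for TTTGAA, for CCAAT, and for the E2F motifs TTCCCGC and TTGGCGC. Motifs can overlap and a match is only a run of letters. Of the 521 genes lower in both libraries, 434 matched, with 525 windows. TTTGAA was in 27.6% of them, CCAAT in 56.4%, both of these in 17.7% and an E2F motif in 29.1%. In all 32851 windows of the genome the shares were 17.9%, 37.4%, 6.95% and 6.81%. In the 6576 windows of the 5109 matched of 6373 genes compared in both libraries they were 12.1%, 37.5%, 5.02% and 13%. Of the 129 genes higher in both, 100 matched, with 121 windows. Their shares were 9.92%, 37.2%, 0% and 4.96%. The 521 lower genes include the 8 of the rule and many S phase and G2/M genes that move with them. The cells were chosen by such genes, so the shares of the lower set describe that choice, and no difference in shares was tested.

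The 250 bases before the start are printed 5′ to 3′ for 4 lower genes outside the rule whose upstream window holds both TTTGAA and CCAAT. They are examples with large differences, and the genes of the rule were left out. They show how close these letters stand to the start and to each other. Capitals mark TTTGAA or its complement TTCAAA, and CCAAT or its complement ATTGG. The windows are Ckap2l (chr2:129297213-129297462, minus strand), Depdc1a (chr3:159495183-159495432, plus strand), Cdc20 (chr4:118437344-118437593, minus strand) and Prc1 (chr7:80294226-80294475, plus strand). Their genes had log2 ratios of -5.01, -4.64, -4.49 and -4.52 in iWAT and -4.95, -4.69, -4.51 and -4.48 in iBAT.
Ckap2l: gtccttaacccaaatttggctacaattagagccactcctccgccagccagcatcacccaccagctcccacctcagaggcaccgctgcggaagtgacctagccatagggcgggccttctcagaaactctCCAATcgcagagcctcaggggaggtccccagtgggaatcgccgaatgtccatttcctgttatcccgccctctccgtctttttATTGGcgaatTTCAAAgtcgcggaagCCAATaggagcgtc
Depdc1a: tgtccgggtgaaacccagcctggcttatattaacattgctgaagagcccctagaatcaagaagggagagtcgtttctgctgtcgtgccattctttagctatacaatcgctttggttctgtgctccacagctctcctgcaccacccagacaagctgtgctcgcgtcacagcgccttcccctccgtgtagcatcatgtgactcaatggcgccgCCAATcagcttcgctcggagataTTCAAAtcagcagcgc
Cdc20: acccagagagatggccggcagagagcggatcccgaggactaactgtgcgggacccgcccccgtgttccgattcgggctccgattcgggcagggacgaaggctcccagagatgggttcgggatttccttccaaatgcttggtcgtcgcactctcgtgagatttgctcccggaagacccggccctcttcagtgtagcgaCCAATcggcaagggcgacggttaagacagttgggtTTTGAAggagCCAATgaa
Prc1: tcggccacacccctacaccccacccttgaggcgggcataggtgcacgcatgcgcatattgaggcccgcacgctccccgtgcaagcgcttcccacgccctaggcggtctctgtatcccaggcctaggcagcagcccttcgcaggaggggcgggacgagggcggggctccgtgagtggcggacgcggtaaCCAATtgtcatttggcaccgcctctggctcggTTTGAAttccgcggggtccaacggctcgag
In each of the 4 the TTTGAA match lies in the last part of the window, with a CCAAT match upstream of it.

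For contrast, the same windows follow for Cemip (chr7:84086506-84086755, minus strand) and Gas6 (chr8:13494536-13494785, minus strand), the 2 non-histone genes farthest above cycling cells. Neither holds any of the motifs, so the letters are all in lower case.
Cemip: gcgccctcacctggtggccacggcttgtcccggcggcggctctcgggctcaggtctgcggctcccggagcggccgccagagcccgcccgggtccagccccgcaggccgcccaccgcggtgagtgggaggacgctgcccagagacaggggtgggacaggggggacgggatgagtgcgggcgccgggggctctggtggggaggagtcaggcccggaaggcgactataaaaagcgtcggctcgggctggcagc
Gas6: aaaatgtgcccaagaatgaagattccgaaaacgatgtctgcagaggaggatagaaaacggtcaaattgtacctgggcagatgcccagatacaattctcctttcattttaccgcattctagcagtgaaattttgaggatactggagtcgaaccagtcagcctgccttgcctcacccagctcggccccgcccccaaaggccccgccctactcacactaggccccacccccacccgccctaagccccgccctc

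Of the cyclin-dependent kinase inhibitors, 3 were higher and 2 lower of 6 past the filter in iWAT, and 1 was higher and 2 lower of 5 in iBAT. Cdkn2a, the locus of p16INK4a and p19ARF (GRCm39 chr4:89192708-89212890), was at 46.6 CPM (43.9 to 49.5) in iWAT members against 21.5 CPM (20.6 to 22.4) in cycling cells and at 46.4 CPM (43.5 to 49.3) against 23 CPM (22.2 to 23.7) in iBAT, log2 ratios of 1.12 and 1.01. Cdkn2b, which encodes p15INK4b, was at 31.9 against 15.1 CPM in iWAT and 18.9 against 8.22 CPM in iBAT, log2 ratios of 1.08 and 1.20, and did not reach the filter of 20 CPM in iBAT. Members were higher in all deciles for both genes, and both decreased at every step of cycling UMIs. The remaining INK4 genes, Cdkn2c and Cdkn2d, were lower in both. Cdkn2c, which encodes p18INK4c, was at 10.3 against 27.9 CPM in iWAT and 14.6 against 37 CPM in iBAT, and Cdkn2d, which encodes p19INK4d, at 17.9 against 49.9 CPM in iWAT and 13 against 38.2 CPM in iBAT, log2 ratios of -1.44 and -1.34 and of -1.48 and -1.55. Both were highest in cells with 25 or more cycling UMIs. Over the 5 classes Cdkn2c was at 10.3, 11.3, 9.34, 14.3 and 37.7 CPM in iWAT and at 14.6, 14, 13.4, 13.4 and 49 CPM in iBAT. Cdkn1b, which encodes p27, was at 93.1 against 97.9 CPM in iWAT and 98.9 against 93.2 CPM in iBAT and differed little in its transcript.

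The D-type cyclins, which carry growth factor signals to the cycle, went apart. Ccnd1, the cyclin most closely tied to ERK signalling, was at 71.6 CPM (68.2 to 75.2) in iWAT members against 120.5 CPM (118 to 123) in cycling cells and at 256 CPM (249.7 to 263) against 460.5 CPM (457 to 464) in iBAT, log2 ratios of -0.75 and -0.84. Ccnd2 was the reverse at 1081 against 644 CPM in iWAT and 1017 against 581 CPM in iBAT, log2 ratios of 0.75 and 0.81, and members were higher in 10 of 10 and 9 of 9 deciles. Ccnd3 was at 172 against 194 CPM in iWAT and 158 against 165 CPM in iBAT, so the D cyclin transcripts did not move together. Of the list of G1 cyclins, their kinases and E2F factors, 1 was higher and 5 were lower of 12 past the filter in iWAT, and 1 and 5 of 13 in iBAT. The other lower genes were Ccne1 (-1.32 and -1.72) and Ccne2 (-3.35 and -4.06), the E cyclins of the G1 to S transition, their kinase Cdk2 (-1.13 and -1.30) and E2f1 (-0.88 and -1.51). Myc, which drives growth, had log2 ratios of -0.22 and -0.22.

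Across all genes past the filter, 197 of 6728 were higher in iWAT members (2.93%) and 643 were lower (9.56%). In iBAT 424 of 6917 were higher (6.13%) and 636 lower (9.19%). The median log2 ratio of all these genes was -0.04 in iWAT and 0.00 in iBAT. Among the 6373 genes past the filter in both libraries, 129 were higher in both, 80.6% of the iWAT set and 39.6% of the iBAT set, and 521 were lower in both, 85.3% and 86.3%. Across these genes, which are not independent replicates, the log2 ratios of the libraries had a Pearson r of 0.964 and a Spearman rho of 0.893. Without the 8 genes of the rule and the S phase and G2/M lists, the r was 0.951. Other genes of the cycle, such as Ccne2, Rad51ap1 and Pbk, stayed in, so this r does not describe genes outside the cycle. Both ratios rest on the same 8-gene rule. Only Gas1 and H19 were past 1.5-fold in opposite directions (the plot of log2 ratios in both libraries), and Gas1 in iWAT was under 1.5-fold in 3 alternatives given with its values above.

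**Figure D4:**
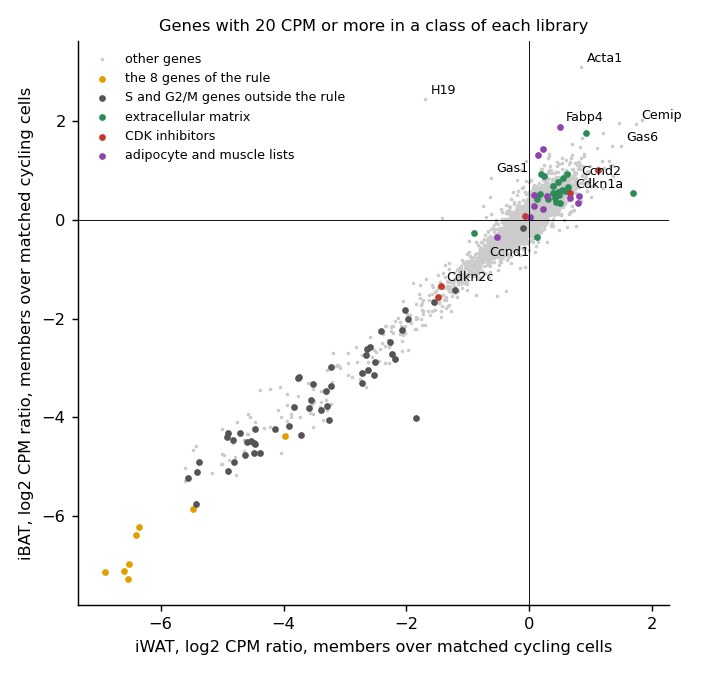
Log2 CPM ratio of members over depth-matched cycling cells in iWAT (x axis) and iBAT (y axis), each point 1 gene with at least 20 CPM in a class of each library, with gene lists in colour. Most genes lie along the diagonal, the cycling genes reach below -4 in both, and H19 stands alone at -1.70 in iWAT and 2.45 in iBAT.

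The genes with the highest ratios in both libraries included Cemip, Gas6 and Mxd4. Cemip, which degrades hyaluronan (GRCm39 chr7:83582065-83735724), was at 106 CPM (102 to 110.1) in iWAT members against 31.9 CPM (30.8 to 33) in cycling cells, and at 322 CPM (314 to 329.6) against 83.6 CPM (82.3 to 85) in iBAT, log2 ratios of 1.73 and 1.95. Gas6, a ligand of the TAM receptor kinases (GRCm39 chr8:13515371-13544824), was at 42.2 CPM (39.6 to 45) against 15.1 CPM (14.3 to 15.9) in iWAT and at 457 CPM (448 to 466) against 161 CPM (159 to 163) in iBAT, log2 ratios of 1.48 and 1.5. The ratios were close although the level in iBAT members was the higher by far. Counts of both genes were uneven among members. In iWAT the 136 members with most Cemip held 77.5% of its UMIs, and 30.2% of members had any. For Gas6 in iWAT these shares were 57.4% and 34.1%. In iBAT the 100 members with most held 54.1% of Cemip UMIs and 41.1% of Gas6 UMIs. Cemip was found in 58.6% of iBAT members and Gas6 in 84.9%.

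Mxd4, which competes with MYC for its partner MAX, was at 101 against 39.7 CPM in iWAT and 179.9 against 63.9 CPM in iBAT, log2 ratios of 1.35 and 1.49. It decreased at every step of cycling UMIs, with 101, 92.7, 77.1, 51.4 and 32.7 CPM over the 5 classes in iWAT and 179.9, 174, 149, 96.2 and 49.8 CPM in iBAT. Slfn5, of the interferon-linked Schlafen family, was at 89.5 against 32.7 CPM in iWAT and 142 against 36 CPM in iBAT, and Ypel3, a growth-suppressing Yippee protein, at 44.8 against 19.8 CPM in iWAT and 61.2 against 26.6 CPM in iBAT. Further genes of the 15 were Aspn (1.19 and 1.76), a small proteoglycan, Pcsk5 (1.30 and 1.19), a proprotein convertase, Dmpk (1.10 and 1.47), a kinase, Fndc1 (1.31 and 1.09), Tmem150a (1.22 and 1.06), Ndrg4 (0.99 and 1.10), Cdkn2a, given above, and a pair of histone genes. The 15 were higher in at least 8 of the deciles used in each library.

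The few histone transcripts past the filter were mostly higher in members, against the direction of the other S phase genes. H2ac19 was at 32.9 against 9.21 CPM in iWAT and 41.1 against 10.1 CPM in iBAT, H2bc4 at 154 against 61 CPM in iWAT and 195 against 90.2 CPM in iBAT and H1f2 at 111 against 43.6 CPM in iWAT and 135 against 72.8 CPM in iBAT. Of 61 histone genes listed in both matrices, 4 passed the filter in both and 3 of these were higher in both. The fourth, the replication-independent linker histone H1f0, had log2 ratios of -0.65 and -0.50. Replication-dependent histone transcripts mostly lack the poly(A) tail by which such libraries capture RNA, so the 3 genes do not measure total histone transcript. H2ac19 has a near-identical neighbour, H2ac18, and how shared reads were split is not stated, so its value is uncertain.

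Of the extracellular matrix list, 6 genes were higher, 1 lower and 17 neither of 24 past the filter in iWAT, and 13 were higher, 0 lower and 12 neither of 25 in iBAT, with medians of 0.47 and 0.60. The whole list summed to 73667 CPM in iWAT members and 53700.2 CPM in matched cycling cells, and to 45639 and 31176 CPM in iBAT. Col3a1, a fibrillar collagen, was at 3684 against 2405 CPM in iWAT and 2489 against 1297 CPM in iBAT, log2 ratios of 0.62 and 0.94. Ogn, the small proteoglycan mimecan, was at 183 against 96.5 CPM in iWAT and 126 against 37 CPM in iBAT, log2 ratios of 0.92 and 1.76. Col5a1 had log2 ratios of 0.63 and 0.68 and Col1a1 of 0.47 and 0.78. Fbln1, a basement membrane glycoprotein, was the lower gene in iWAT at 24.1 against 45.1 CPM. Eln, elastin, was at 34.1 against 10.7 CPM in iWAT and 22.4 against 15.2 CPM in iBAT, and in iBAT members were higher in only 5 of 9 deciles. Mmp2 and Timp3, a matrix protease and a protease inhibitor named after their values were seen, were at 481 against 297 CPM in iWAT and 418 against 204 CPM in iBAT and at 2981 against 1485 CPM in iWAT and 1256 against 776 CPM in iBAT.

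The lists for arrest had smaller medians. Of the quiescence list, 3 were higher and 1 lower of 16 in iWAT, and 6 higher and 0 lower of 16 in iBAT, with medians of 0.37 and 0.37. The lower gene was Gas1. Btg2, an antiproliferative regulator, was at 141 against 85.6 CPM in iWAT and 78.6 against 42.6 CPM in iBAT, log2 ratios of 0.71 and 0.89. Klf9 had log2 ratios of 0.44 and 0.61 and Sesn3, a stress-induced TORC1 inhibitor, of 0.69 and 0.65. Of p53 targets, 3 of 20 were higher in iWAT and 3 of 19 in iBAT, none lower, with medians of 0.20 and 0.20. Trp53inp1 was at 37.7 against 19.6 CPM in iWAT and 47.8 against 24.3 CPM in iBAT, but Mdm2, the p53 ligase and one of its best known targets, was at 137 against 136 CPM in iWAT and 117 against 118 CPM in iBAT, a ratio near 0. Of secreted factors tied to senescence, 2 of 18 were higher in iWAT and 4 of 18 in iBAT, among them Igfbp3 (0.95 and 0.99) and Ccl8 (0.70 and 1.55). Ccl2, the monocyte chemokine of that list, was at 278 against 386 CPM in iWAT and 586 against 854 CPM in iBAT, and Il6 at 91.3 against 71.2 CPM in iWAT and 24.6 against 21.5 CPM in iBAT, so the list did not move as a whole.

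**Figure D5:**
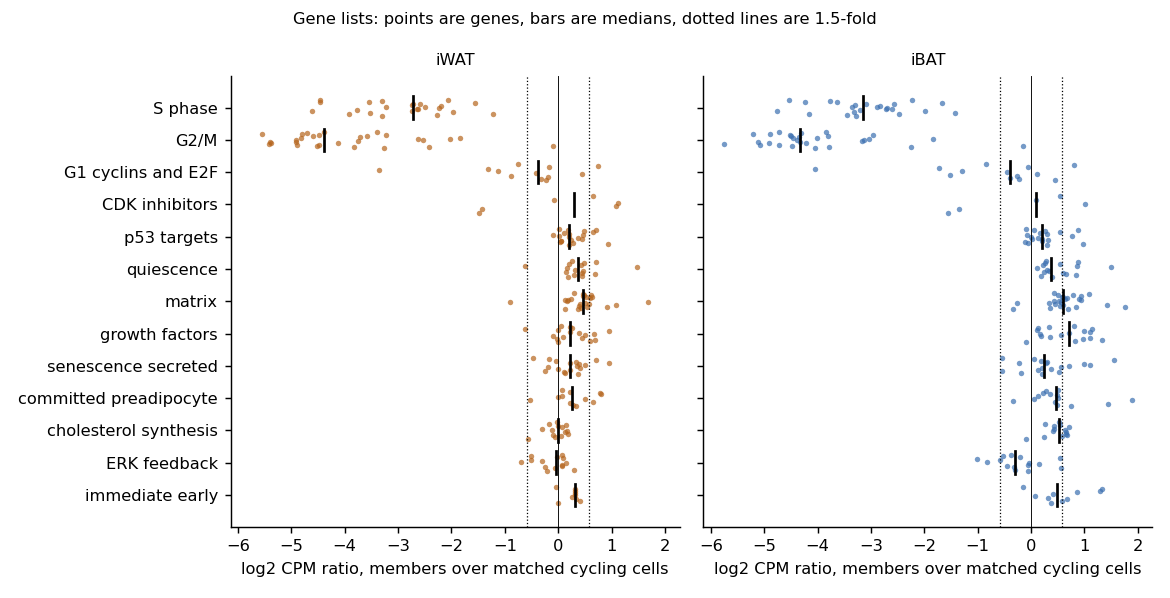
Log2 CPM ratio of members over matched cycling cells (x axis) for the genes of 13 lists (rows) in iWAT (left) and iBAT (right), with points for genes past the filter, bars for list medians and dotted lines at 1.5-fold. The S phase and G2/M lists lie far to the left, the matrix medians are 0.47 and 0.60, and cholesterol synthesis is at -0.01 in iWAT and 0.53 in iBAT.

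Of the growth factor and binding protein list 4 were higher, 1 lower and 12 neither of 17 in iWAT, and 9 were higher, 0 lower and 8 neither of 17 in iBAT, a contrast that was not tested, with medians of 0.23 and 0.71. Tgfb2 was at 69.1 against 43 CPM in iWAT and 48.1 against 19.2 CPM in iBAT and Tgfb3 at 65.6 against 43.6 CPM in iWAT and 62.6 against 35.5 CPM in iBAT. Igfbp4, which binds insulin-like growth factors, was at 86.1 against 73.5 CPM in iWAT and 1489.9 against 689.8 CPM in iBAT, and Sfrp1, a WNT antagonist, at 202 against 148 CPM in iWAT and 1312 against 611 CPM in iBAT. Grem1, a BMP antagonist, was the lower gene in iWAT at 198 against 304 CPM and was at 733 against 670.0 CPM in iBAT.

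Since 3 of the 4 cultures in each library had received an FGF per the labels, the FGF system was read gene by gene. Fgfr1, a receptor for FGF1 and FGF2, was at 305 against 288 CPM in iWAT and 288 against 283 CPM in iBAT, and Fgfr2 at 37 against 40.4 CPM in iWAT and 45.7 against 44.2 CPM in iBAT. Fgfr3 and Fgfr4 were at 1.24 CPM or less in every class. Fgfrl1, a receptor without kinase domain, was at 20.2 against 20.4 CPM in iWAT and 38.6 against 22.5 CPM in iBAT. Of the ligands, Fgf2 was at 309 CPM (302 to 316) in iWAT members against 265 CPM (262 to 268) in cycling cells and at 199 CPM (193 to 205) against 154 CPM (152 to 156) in iBAT, log2 ratios of 0.22 and 0.37. Fgf18 was at 20.8 against 13.2 CPM in iWAT and 21.2 against 10.9 CPM in iBAT, log2 ratios of 0.65 and 0.96, and Fgf10 at 16.2 against 11.7 CPM in iWAT and 94.9 against 60.2 CPM in iBAT. Fgf7 was at 85.2 against 96.2 CPM in iWAT and 303 against 257 CPM in iBAT. Fgf21, the endocrine FGF, was at 24 CPM (22.1 to 26.1) against 7.19 CPM (6.68 to 7.73) in iWAT, a log2 ratio of 1.74, with 84.3% of its UMIs in the tenth of members that held most, and at 0.743 CPM in iBAT members. The heparan sulphate co-receptor Sdc2 had log2 ratios of 0.44 and 0.56 and Sdc4 of -0.33 and 0.21. In all, 2 of 11 genes of the list were higher in iWAT and 3 of 11 in iBAT, none lower.

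Feedback genes of the ERK cascade are induced downstream of FGF receptors. Of the list, 0 were higher and 1 lower of 14 in iWAT, and 0 higher and 2 lower of 15 in iBAT, shares of lower genes near those over all genes, with medians of -0.04 and -0.29. Fosl1, an AP-1 subunit induced by ERK, was at 39.5 against 63.7 CPM in iWAT and 51.5 against 90.8 CPM in iBAT, log2 ratios of -0.69 and -0.82. Etv4, of the PEA3 factors, was at 18.4 against 26.2 CPM in iWAT and 11.4 against 23.1 CPM in iBAT. Dusp6, the ERK phosphatase, was at 44.3 against 44.9 CPM in iWAT and 60.7 against 70.3 CPM in iBAT, and Spry2 at 63.5 against 73 CPM in iWAT and 61 against 74.8 CPM in iBAT. Dusp1, another MAP kinase phosphatase, not on the list and named after its values were seen, was at 213 CPM in iWAT members and 124 CPM in iBAT members and decreased at every step of cycling UMIs, to 123 and 61.4 CPM. No immediate early or stress gene was lower by 1.5-fold. None of 9 passed 1.5-fold in iWAT and 4 of 10 were higher in iBAT, where Fos was at 215 against 85.2 CPM and Fosb at 48.3 against 19.7 CPM. In iWAT Fos was at 485 against 388 CPM.

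Thermogenic genes were near absent from members. Ucp1, the uncoupling protein of brown fat, had 0 UMIs in iWAT members, which allows a level of up to 0.130 CPM (3 counts), and 5 in iBAT members, 0.232 CPM (0.0754 to 0.542), against 0.338 CPM (0.262 to 0.442) in cycling cells. None of the thermogenic list reached 20 CPM in either class. Prdm16, a regulator of brown fat identity, was at 1.86 against 1.97 CPM in iWAT and 5.01 against 5.06 CPM in iBAT, and Dio2 at 0.346 against 0.694 CPM in iWAT and 8.40 against 8.57 CPM in iBAT.

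Different adipogenic genes passed 1.5-fold in the libraries, a contrast that was not tested. Of the committed preadipocyte list 3 were higher of 12 in iWAT and 3 of 14 in iBAT, none lower, with medians of 0.25 and 0.47. No gene of the list was in both sets, while over all genes past the filter in both libraries 80.6% of the iWAT set was also higher in iBAT. Pparg was under the filter of 20 CPM in iWAT and could not be called there. After thinning to 10000 UMIs Fabp4 was past 1.5-fold in both libraries, with log2 ratios of 0.589 in iWAT and 1.29 in iBAT. In iWAT the list's higher genes were Icam1 (0.66), Col15a1 (0.78) and Cxcl14 (0.81). These were above 0 in iBAT as well but under 1.5-fold (0.46, 0.36 and 0.48). In iBAT the list's higher genes were Pparg, the master regulator of fat cell formation, Fabp4, a fatty acid carrier, and Lpl, lipoprotein lipase. Pparg was at 41.3 against 24.7 CPM, Fabp4 at 251 against 67.6 CPM and Lpl at 658 against 243 CPM. Without the cells that carried adipocyte transcripts, the log2 ratio of Fabp4 was 0.92 in place of 1.89. In iWAT Pparg was at 10.4 against 10.2 CPM, Fabp4 at 55.1 against 38.9 CPM and Lpl at 285 against 245 CPM. Of the interstitial progenitor list 1 of 6 was higher in iWAT, Igfbp6, and in iBAT 2 were higher and 1 lower of 6, with Ly6a, the antigen Sca-1, at 967 against 595 CPM and Cd34 at 15.3 against 32 CPM.

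Cholesterol synthesis had 0 genes higher of 14 in iWAT and 5 of 14 in iBAT, with medians of -0.01 and 0.53. Hmgcs1, an early enzyme of the pathway, was at 133 against 127 CPM in iWAT and 139.5 against 85.7 CPM in iBAT. The difference between the libraries was not tested. The ATF4 list had medians of 0.07 and -0.04. Its members named by the rule were Psat1 at 193 against 305 CPM in iWAT and 123 against 273 CPM in iBAT, Phgdh at 45.8 against 71 CPM in iWAT and 34.5 against 65.9 CPM in iBAT and Mthfd2 at 113 against 157 CPM in iWAT and 53.1 against 95.4 CPM in iBAT, and Ddit3, higher in members, at 52.1 against 31.2 CPM in iWAT and 46.9 against 27.7 CPM in iBAT. That list had 1 higher and 2 lower of 13 in iWAT and 1 higher and 3 lower of 8 in iBAT. Glycolysis and hypoxia genes had medians of 0.00 and 0.02. Contractile genes had 1 higher of 14 in iWAT and 4 of 14 in iBAT, with Mylk, the myosin light chain kinase, at 40 against 22.9 CPM in iWAT and 193 against 93.3 CPM in iBAT. Interferon-stimulated genes had 3 higher of 13 in iWAT, and in iBAT 2 passed the filter and 1 was higher. Of the genes that mark adipogenesis-regulating stroma, none passed 1.5-fold in iWAT and 1 of 6, F3, did in iBAT at 1208 against 697 CPM.

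Transcripts of other cell types stood out in iBAT members. The muscle list summed to 71.5 CPM in them against 18.1 CPM in cycling cells, and to 10.8 against 10.5 CPM in iWAT, where Myod1, Myf5, Pax7 and Myog were at 0. Myog, the factor of muscle differentiation, was at 34.8 CPM (32.3 to 37.4) in iBAT members against 4.43 CPM (4.12 to 4.78), with all of its 749 UMIs in 19 cells. The mature adipocyte list summed to 423 against 163 CPM in iBAT and to 517 against 465 CPM in iWAT. Most of each sum was Scd1, a desaturase gene that is not limited to adipocytes, at 350.0 against 141 CPM in iBAT and 496 against 449 CPM in iWAT. Adipoq, adiponectin, was at 16.7 CPM (15 to 18.5) against 0.821 CPM (0.698 to 0.970) in iBAT, with its 457 UMIs in 19 cells, and had 1 UMI in iWAT members. Cells with at least 2 UMIs over Myod1, Myog and Cdh15 were 12 of 1004 (1.20%, 0.619 to 2.08) of iBAT members and 68 of 15436 (0.441%, 0.342 to 0.558) of cycling cells. Cells with at least 2 UMIs over Adipoq, Plin1 and Cfd were 13 of 1004 (1.29%, 0.691 to 2.20) and 59 of 15436 (0.382%, 0.291 to 0.493). In iWAT the members with such counts were 1 and 0.

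Endothelial, immune, Schwann, mesothelial, epithelial and mural lists were low. Summed over each list, the members were at 29.9, 16.7, 26.5, 41.2, 20.4 and 90.2 CPM in iWAT and at 27.6, 20.8, 16.9, 15, 3.48 and 100.1 CPM in iBAT. Matched cycling cells were at 25, 17.6, 23.1, 39.2, 20.6 and 70.9 CPM in iWAT and at 24.2, 27.4, 12.4, 17.2, 0.855 and 76.2 CPM in iBAT. Scrublet called 0 members doublets in iWAT and 2 in iBAT (0.199%), against 0.962% and 4.08% of cycling cells.

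A few cells held most of the iBAT counts of H19, an imprinted RNA of embryonic and muscle tissue (GRCm39 chr7:142129262-142133957). H19 was at 7.44 CPM (6.37 to 8.64) in iWAT members against 24.1 CPM (23.1 to 25.2) and at 135 CPM (130.4 to 140.3) in iBAT members against 24.8 CPM (24 to 25.6), log2 ratios of -1.70 and 2.45. In iBAT the tenth of members with most H19 held 99.4% of its UMIs, 1 cell held 492, and members were higher in only 4 of 9 deciles. Without the 12 myogenic members and the like cycling cells, the iBAT ratio was 0.31, under 1.5-fold. Acta1, skeletal actin, went from 3.10 to 1.16 and Myog, one of the genes that chose the cells left out, from 2.97 to -0.55, while Gas1 was 0.85 and Cdkn2a 1.02. Cdkn1c in iBAT went from 1.06 to 0.62. Without the cells that carry adipocyte transcripts, the iBAT ratio of Scd1, a fatty acid desaturase, was 0.53 in place of 1.31, and that of Lpl 1.22 in place of 1.44. Over all genes, 421 were higher and 636 lower in iBAT without the myogenic cells, and 425 and 637 without the adipocyte-marked ones. A limit of 15% on mitochondrial transcripts also lowered iBAT ratios, to 2.32 for Acta1, 1.85 for Myog, 2.19 for Adipoq, 1.73 for H19, 1.27 for Fabp4, 0.91 for Scd1 and 0.48 for Cdkn1c. With members limited to 0 cycling UMIs, 265 cells, the iBAT ratios were 4.88 for Acta1, 4.71 for Myog, 3.87 for H19, 2.43 for Cdkn1c, 2.31 for Fabp4, 1.73 for Scd1 and 4.13 for Adipoq, higher than with the rule's cutoff except for Adipoq. The exclusions by marker were chosen after seeing the data, and H19 and Acta1 were named here after their values were seen.

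Members differed most among themselves in secreted and cytoskeletal genes. Counts were thinned to 10000 UMIs per cell and the Fano factor, the variance over the mean, was taken, which is near 1 for counting noise alone. Its median over 5794 genes was 1.14 in iWAT and 1.14 in iBAT, and it was over 2 for 454 of them in iWAT and 510 in iBAT. The 10 highest in both included Col1a1, Spp1, Mmp3, Cxcl14, Timp3, Igfbp5, Tmsb4x, Col3a1 and Acta1. Col1a1 had Fano factors of 63 and 62.9 at means of 240.2 and 104 UMIs per cell. Spp1, osteopontin, had 59.4 and 84.3, and Mmp3, stromelysin, 37.6 and 51.9. Cycling cells had lower Fano factors for each of the 10, for example 41 and 46.4 for Spp1. The 10 were chosen by their values in members, so this does not compare the spread of the 2 classes. Acta1 had 25.1 in iWAT but 139 in iBAT, where a single cell held 410 of its 2730 UMIs. Across members, Col1a1 and Col3a1 went together with a Pearson r of 0.685 in iWAT and 0.718 in iBAT, and Spp1 and Timp3 went apart with -0.467 and -0.300 (n = 1363 and 1004 cells of 1 library each).

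Members of the 2 depots shared most of their levels. Of 3752 genes with at least 50 CPM in the members of a depot and at least 1 UMI in the members of each, 90.8% were within 2-fold. Genes without a UMI in the members of a depot were left out of these counts and rankings. At 4-fold or more, 71 were higher in iBAT (1.89%) and 47 in iWAT (1.25%). Toward iWAT the greatest ratios were those of Xist, Hoxc10, Lrrc15, Ifi44 and Crabp2. Hoxc10, a homeobox gene of posterior body position, was at 0.503 CPM in iBAT against 143 CPM in iWAT, Lrrc15, a stromal membrane protein, at 4.02 CPM in iBAT against 96.5 CPM in iWAT, and Crabp2, a retinoic acid carrier, at 3.61 CPM in iBAT against 53.3 CPM in iWAT. Toward iBAT they were Srp54b, Prl2c3, Actc1, Ddx3y and Mylpf. Actc1 and Mylpf are muscle genes and were at 58 CPM in iBAT against 0.519 CPM in iWAT and 88.1 CPM in iBAT against 1.51 CPM in iWAT, in iBAT with all of their UMIs in 52 and 82 members. Xist was at 0.0457 CPM in iBAT against 361 CPM in iWAT and the Y-linked Ddx3y at 94.1 CPM in iBAT against 1.43 CPM in iWAT, so sex and depot cannot be told apart. Srp54b and Prl2c3 belong to families of near-identical copies and are uncertain. Cycling cells had the same depot order for these genes. In cycling cells Hoxc10 was at 161 CPM for iWAT against 0.453 CPM for iBAT.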

How the data were processed

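RNA of single cells was captured on BD Rhapsody cartridges, 1 library per depot. The authors deposited raw UMI counts per gene and cell, aligned to mm39 on a commercial cloud platform. The submitters' processing notes list Seurat 5.0.0, and the annotation, the aligner version and the handling of reads shared by gene copies are not given in the sources used here. Libraries held 29962 and 28636 barcodes with 503611913 (iWAT) and 815235820 (iBAT) UMIs, and shared 8 barcodes, none of them a member.

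Classes were formed from the counts as given above, and UMIs were summed per class (Python 3.11.15, numpy 2.4.6, scipy 1.17.1, pandas 2.3.3). Deeper cells reach the cutoff less often, hence the matching by decile. Intervals are exact Poisson for members, gamma for the weighted cycling level, normal for log2 ratios and exact binomial for shares. Doublets were called with Scrublet in scanpy 1.11.5 at an expected rate of 0.08 and kept. The comparison was tested on simulated data. With 1 library per depot no test was run.

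Members and gene lists were chosen with earlier results of these data known. Named genes were the 15 highest and 10 lowest by the smaller absolute log2 ratio of both libraries, the 4 with the largest such ratio in each list, all cyclin-dependent kinase inhibitors, FGF genes and label markers, the 10 most variable genes, and 5 per depot. Some genes chosen by this rule are not reported here. Other genes were named after their values were seen. Alternatives changed the cutoffs, depth, doublets, scaling, filter and fold.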

Additional observations from a re-analysis of the deposited data

Results flagged for a closer look

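Gas1 and H19 were the genes past 1.5-fold in opposite directions in the depots. The log2 ratio of Gas1 was -0.62 in iWAT and 0.86 in iBAT, and that of H19 was -1.70 in iWAT and 2.45 in iBAT. Each depot was 1 library, and the difference between the depots was not tested. Without the iBAT cells that carried myogenic transcripts, the ratio of H19 in iBAT was 0.31 and that of Gas1 was 0.85. Gas1 in iWAT was under 1.5-fold with no matching on depth (-0.40), after thinning (-0.57) and with median-of-ratios scaling (-0.58).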

How the results depend on the processing

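The share of members depended on the cutoff and on depth. In iWAT it was 3.27% at 0 cycling UMIs, 17.4% at 2 or fewer, 7.79% in cells with 15000 or more UMIs, 9.22% with at least 2 UMIs of Pdgfra and 20.3% after thinning. In iBAT it was 1.09%, 8.66% and 3.68% for the first 3 of these and 18.6% after thinning. With a filter of 5 CPM, 429 genes were higher and 1052 lower in iWAT, and 890 and 1040 in iBAT. With 50 CPM the counts were 105 and 315 in iWAT and 239 and 336 in iBAT, and with a 2-fold cutoff 25 and 338 in iWAT and 92 and 345 in iBAT. For the 25 genes named by rank, all 550 values over 11 settings kept their direction and passed 1.5-fold. Of 1950 values over all named genes past 1.5-fold, 1915 still passed it and 2 were reversed. The named genes include some of the rule and of the S phase and G2/M lists. Without cells carrying myogenic markers, an exclusion chosen after seeing the data, Myog in iBAT was at -0.55 and Mylpf at -0.027, and the first of these was fixed by the exclusion, which used Myog. No paired analysis was possible because each depot was 1 library, the labels give no replicate numbers and no test was run. Precision is limited by 1 library per depot, by treatments that could not be separated, and by members' lower depth.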

Other observations

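Further gene groups were assembled after the values of their members were seen, and their counts only describe these libraries. Of 36 lysosomal genes past the filter, 6 were higher and 30 neither in iWAT (median log2 ratio 0.38), and 11 higher and 25 neither in iBAT (0.46). All 36 were above 0 in each library, against 44.4% of all genes in iWAT and 50.3% in iBAT. Ctsd, a cathepsin, had log2 ratios of 0.75 in iWAT and 0.70 in iBAT, and Ctsk, a collagen-degrading cathepsin, 0.61 and 0.63. Of complement genes, 4 of 6 were higher in iWAT and 5 of 5 in iBAT. C1s1, a complement protease, had log2 ratios of 0.80 and 1.18, and Serping1, its inhibitor, 0.68 and 1.25.

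Of 23 ribosome biogenesis genes, 15 were lower in iWAT and 16 in iBAT, with medians of -0.68 and -0.65 and none higher. Dkc1, the pseudouridine synthase dyskerin, had log2 ratios of -1.17 and -1.30, and Ncl, nucleolin, -0.68 and -0.73. Of splicing factors, 24 of 35 were lower in iWAT and 21 of 34 in iBAT, with a median of -0.67 in each, while Srsf5 was at 0.01 and 0.20. Transcripts of ribosomal proteins made up 7.18% of member UMIs against 7.27% in cycling cells of iWAT and 7.77% against 8.27% in iBAT. Mitochondrially encoded transcripts made up 6.46% against 5.61% and 6.95% against 6.51%. The imprinted non-coding RNA Meg3 was at 513 against 269.5 CPM in iWAT and at 307 against 161 CPM in iBAT, a log2 ratio of 0.93 in each.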
